A study of Mus musculus with 20 samples.

Results

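The genes described here are 10 genes of insulin signalling and glucose uptake, picked by symbol out of the 19505 genes with a named probe on the array. They are the insulin-responsive glucose transporter Slc2a4 (GLUT4), the insulin receptor Insr, the receptor substrates Irs1, Irs2 and Irs3, the kinase Akt2, the regulatory kinase subunit Pik3r1, the Rab GTPase-activating protein Tbc1d4 (AS160), and the adaptors Grb10 and Grb14. All 10 were measured, each by 1 probe with a single symbol. The choice of genes used no measured value, though it was made with earlier results of these arrays known.

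The series measured total RNA from mouse adipocytes that, by their labels, came from adipose tissue and were differentiated in vitro. There were 20 arrays in 4 groups of 5: Olfm2 knockout (KO) sc, Wild-type (WT) sc, KO g and WT g, where sc and g are the depots as the labels write them. Olfm2 encodes the secreted glycoprotein olfactomedin 2. The labels give no treatment, age, sex or strain, nor the kind of knockout allele or the cells in which it acts. They also do not say whether the 5 samples of a group came from separate mice or cultures. A p-value below therefore sets a group difference against the spread between samples within groups, which may be technical.

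In fat cells insulin binds its receptor tyrosine kinase, which phosphorylates the receptor substrates. These recruit the phosphoinositide 3-kinase, whose lipid product brings AKT2 to the membrane for activation. AKT2 phosphorylates TBC1D4 and so releases the Rab proteins that let vesicles carrying GLUT4 fuse with the plasma membrane, where the transporter brings glucose in. GRB10 and GRB14 bind the active receptor and dampen it.

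Values are the deposited log2 signals, so a difference of 1 is a doubling, and the level of 1 gene is not set against that of another because probes differ in brightness. Array medians lay between 5.78 and 5.92, and the medians of the negative control probes between 4.45 and 4.84. Olfm2 itself was at 3.22 ± 0.38 in KO sc arrays and 4.88 ± 0.42 in WT sc arrays (SD, n = 5 each; limma adjusted p = 0.000152). In g it was at 3.54 ± 0.15 in KO arrays and 4.34 ± 0.23 in WT arrays (SD, n = 5 each; limma adjusted p = 0.00784). KO and WT arrays did not overlap in either depot, so the labels of all 20 arrays fitted this check, although the probe read near or below the negative controls. All 7 measured markers of adipocytes lay above the negative controls in every group, and so did markers of other cells. The mean of 16 hepatocyte markers was above 7 on 8 arrays, from 7.37 to 9.93: sc300KO, sc318KO, g306 KO, g317 KO, g318 KO, g320 KO, g286 WT and g308 WT. Skeletal muscle markers averaged 10.94 on sc286WT, 9.02 on sc307WT, 7.78 on sc317KO and 7.18 on sc320KO, against 5.81 or less elsewhere, and lymphocyte markers were above 8 on sc286WT, sc317KO and sc320KO. Macrophage markers averaged 8.22 in KO sc, 8.56 in WT sc, 9.14 in KO g and 9.97 in WT g arrays. The labels name adipocytes differentiated in vitro, and these marker values do not match RNA of such cells alone. In such mixed RNA, fewer cells of a type and less RNA per cell cannot be told apart.

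In g, the transporter gene Slc2a4, Akt2, Irs3 and Insr were higher in KO arrays than in WT arrays, and Grb14, the gene of an inhibitory adaptor, was lower. These 5 of the 10 genes passed the test (limma, Benjamini-Hochberg adjustment over 19505 genes, adjusted p under 0.05, termed called). Counts of genes or markers that rose or fell count called ones alone. Of all genes 11.3% were called in this comparison, 5.01% higher and 6.27% lower in KO, against 4 higher and 1 lower of these 10. The median difference of the 10 genes was 0.27, and that of all genes 0.02.

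**Figure D1:**
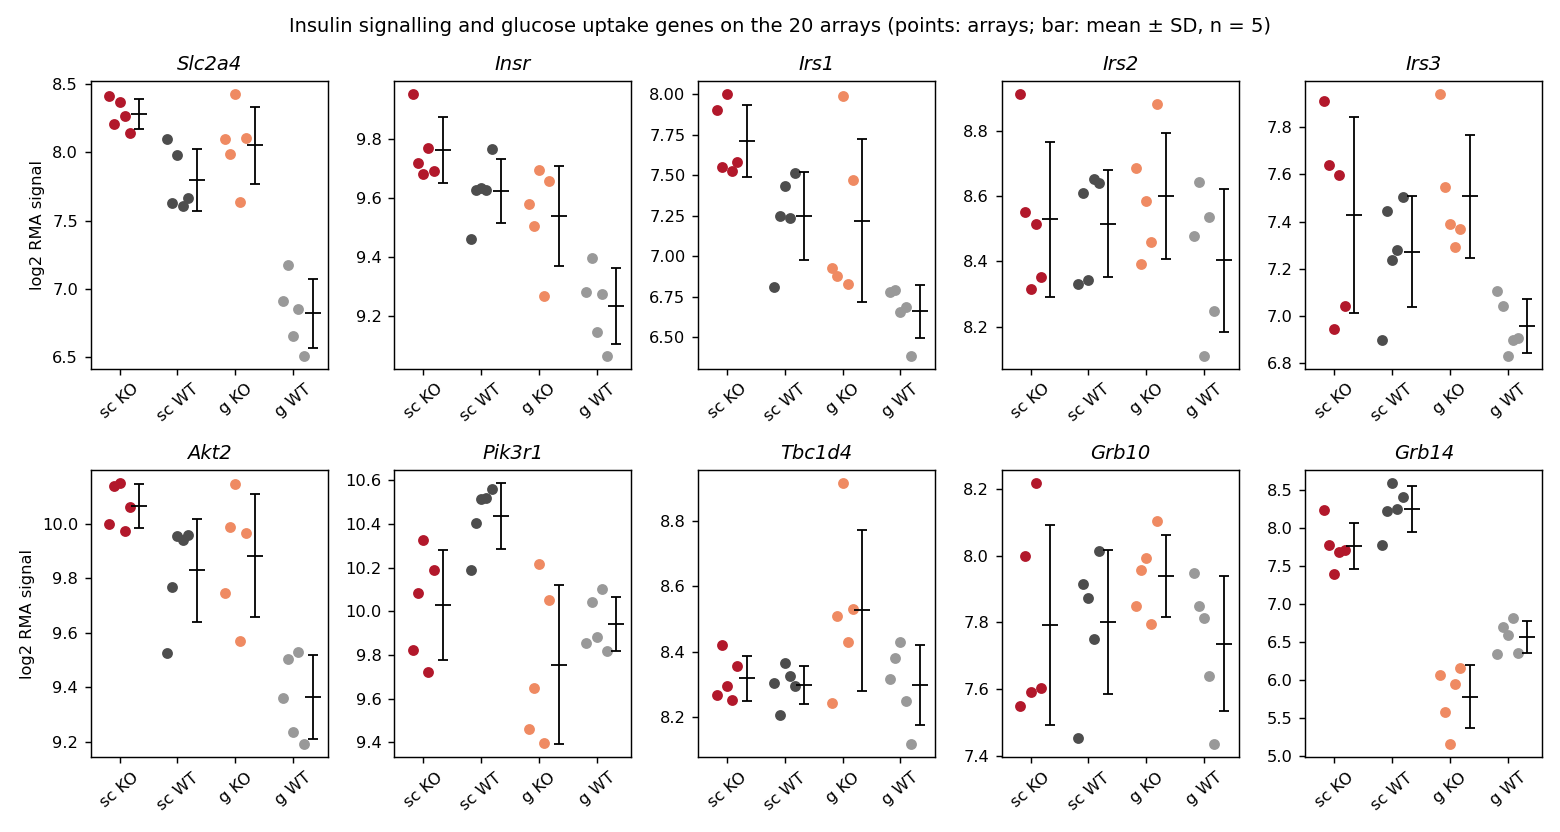
log2 signal (vertical axes, 1 panel per gene) of the 10 insulin signalling and glucose uptake genes on each of 20 arrays, in the groups sc KO, sc WT, g KO and g WT; each point is 1 array and each bar the mean ± SD of 5. The g KO points of Slc2a4 (7.64 to 8.43) lie above the g WT points (6.51 to 7.18), and those of Grb14 (5.15 to 6.15) lie below them (6.35 to 6.81).

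Slc2a4 encodes GLUT4, the transporter that insulin moves to the surface of fat and muscle cells. In the KO g arrays, in the order of their title numbers, it read 8.10, 7.99, 8.43, 7.64 and 8.11, and in the WT g arrays, in the same way, it read 6.91, 7.18, 6.65, 6.85 and 6.51. The lowest KO array, g318 KO, was still above the highest WT array, g287 WT. Slc2a4 averaged 8.05 ± 0.28 in KO and 6.82 ± 0.25 in WT g arrays (SD, n = 5 each), a log2 difference of 1.23 (SE 0.14), or 2.35-fold, with a limma adjusted p of 3.97e-05. An exact two-sided permutation test of these 5 arrays against 5 gave p = 0.00794, the smallest that 5 against 5 allows. Any gene without overlap gets this value, so it adds nothing to the separation. Among the 10 genes Slc2a4 showed the largest difference in this comparison.

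Akt2 encodes the AKT isoform that, in mice, carries much of the insulin signal to glucose uptake. It read 9.75, 9.99, 10.15, 9.57 and 9.97 in KO g arrays, against 9.36, 9.51, 9.24, 9.53 and 9.19 in WT g arrays. The groups lay close but did not overlap, with g318 KO the lowest of its group again. The log2 difference was 0.52 (SE 0.11; limma adjusted p = 0.00406), or 1.43-fold.

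Irs3, a receptor substrate found in rodent fat, read 7.94, 7.55, 7.39, 7.29 and 7.37 in KO g arrays, against 7.10, 7.04, 6.83, 6.90 and 6.91 in WT g arrays. Every KO array exceeded every WT array, and g300 KO stood highest. The log2 difference was 0.55 (SE 0.17; limma adjusted p = 0.0364). Insr, the receptor itself, read 9.58, 9.51, 9.69, 9.27 and 9.66 in KO g arrays, against 9.28, 9.40, 9.15, 9.27 and 9.07 in WT g arrays. Only g318 KO fell among the WT arrays, the other 4 KO arrays being above all 5. The log2 difference of Insr was 0.31 (SE 0.09; limma adjusted p = 0.0334), or 1.24-fold.

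Grb14 moved the other way. It read 6.07, 5.57, 5.15, 5.95 and 6.15 in KO g arrays, against 6.35, 6.70, 6.59, 6.81 and 6.35 in WT g arrays. No KO array reached the lowest WT array, and g317 KO was lowest of all. Grb14 averaged 5.78 ± 0.41 in KO and 6.56 ± 0.21 in WT g arrays (SD, n = 5 each), a log2 difference of -0.78 (SE 0.19; limma adjusted p = 0.00927), which is 1.72-fold lower in KO. Grb10, the related adaptor, averaged 7.94 ± 0.12 in KO and 7.74 ± 0.20 in WT g arrays (SD, n = 5 each) and was not called (log2 difference 0.20, limma adjusted p = 0.395).

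Irs1, the substrate that carries much of the metabolic insulin signal in fat cells, read 6.93, 6.88, 7.99, 6.83 and 7.47 in KO g arrays, against 6.78, 6.79, 6.65, 6.68 and 6.39 in WT g arrays. The groups did not overlap, but 3 KO arrays lay close to the WT ones while g317 KO and g320 KO stood well above. The log2 difference of 0.56 (SE 0.19) missed the threshold (limma adjusted p = 0.0600). In all, 5 of the 10 genes had groups that did not overlap in g (Slc2a4, Irs1, Irs3 and Akt2 higher, Grb14 lower in KO), against 10.4% of all genes.

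The other 3 genes were not called in g and their groups overlapped. Irs2, the second major substrate, had a log2 difference of 0.20 (95% confidence interval -0.07 to 0.46; limma adjusted p = 0.378). Pik3r1, which encodes the p85 alpha regulatory subunit that binds the phosphorylated substrates, had a difference of -0.19 (95% confidence interval -0.49 to 0.12; limma adjusted p = 0.495). Tbc1d4, the AKT target on the GLUT4 route, had one of 0.23 (95% confidence interval 0.02 to 0.43; limma adjusted p = 0.151). For Tbc1d4 the KO g mean leaned on g317 KO, at 8.92 the highest of the 20 arrays. Single arrays moved several genes at once: g317 KO was the highest of its group for 6 of the 10 genes, g318 KO the lowest of its group for 7, and g309 WT the lowest of its group for 7.

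**Figure D2:**
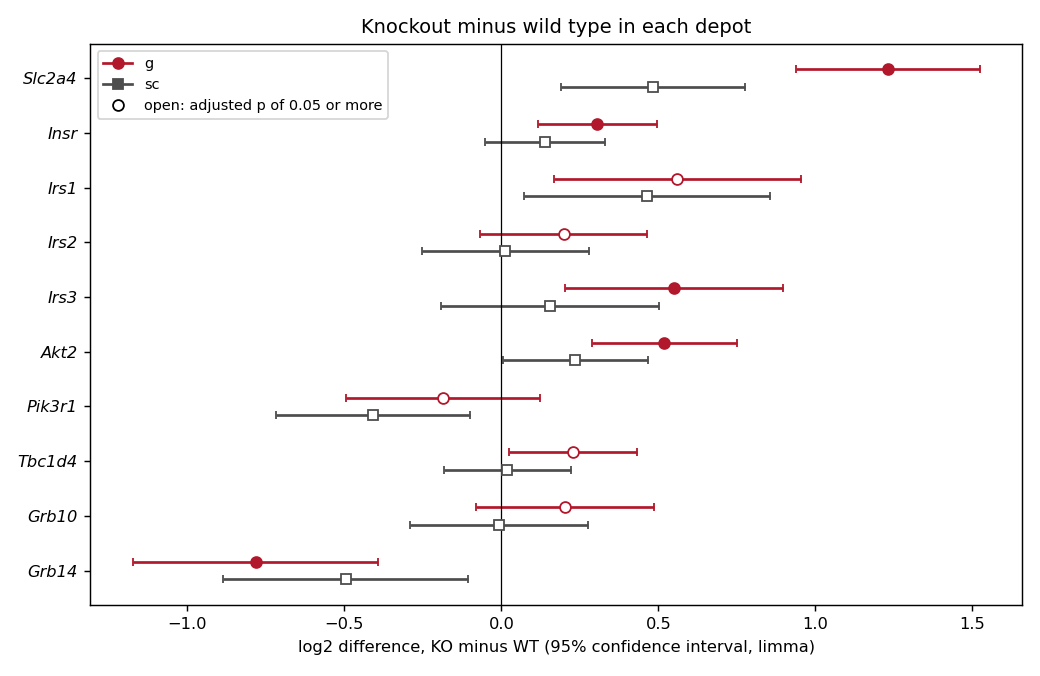
log2 difference, KO minus WT, of each of the 10 genes (rows) in g and in sc, with 95% confidence intervals from limma; filled symbols mark an adjusted p under 0.05. The interval of Slc2a4 in g (0.94 to 1.52) lies wholly above its interval in sc (0.19 to 0.78), and no sc symbol is filled.

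Markers of other cells moved with the KO and WT groups in g. The mean of 14 measured macrophage markers of 15 listed was 8.76 to 9.51 in KO g arrays and 9.70 to 10.21 in WT g arrays, without overlap, and 12 of the 14 fell and 1 rose in KO. All 9 mast cell markers fell, their mean being 5.40 to 6.19 in KO g arrays and 7.15 to 8.05 in WT g arrays. The adipocyte marker mean was 11.98 to 12.29 in KO g arrays and 11.70 to 12.05 in WT g arrays, and the hepatocyte marker mean 5.46 to 9.93 in KO g arrays and 5.06 to 8.55 in WT g arrays, both with overlap. For the adipocyte mean the overlap came from g317 KO and g287 WT alone. All 7 adipocyte markers had a higher mean in KO g arrays and 3 of them were called, and 3 of 8 markers of fibroblasts and preadipocytes fell. With the adipocyte mean as a covariate the difference of Slc2a4 was 1.22 (limma adjusted p = 0.002) and that of Grb14 -1.14 (limma adjusted p = 0.00593), and 2 of the 10 genes were called. With the hepatocyte mean as a covariate 3 of the 10 were called, with Slc2a4 at 1.16 (limma adjusted p = 0.000371). The macrophage mean differed between the groups without overlap, so its part and that of the knockout cannot be told apart. With it as a covariate the difference of Slc2a4 was 0.74 (limma unadjusted p = 0.00201, limma adjusted p = 0.294). That of Grb14 was -0.77 (limma adjusted p = 0.477) and that of Insr 0.03 (limma adjusted p = 0.976), and 0 of the 10 genes were called. The share of all genes called was not set beside the counts of these covariate fits. A general loss of calls is therefore not told apart from one in these genes.

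**Figure D3:**
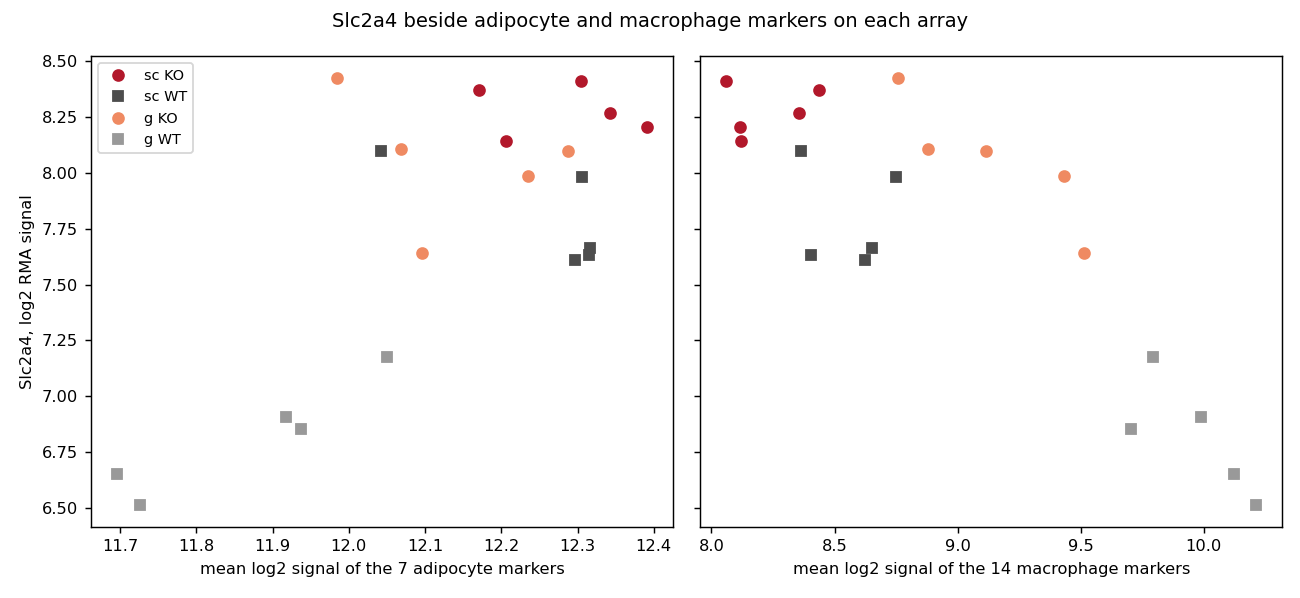
log2 signal of Slc2a4 (vertical axes) against the mean log2 level of 7 adipocyte and of 14 macrophage markers (horizontal axes, 1 panel each) on the 20 arrays, with 1 symbol per group. The g KO arrays sit at macrophage means of 8.76 to 9.51 and the g WT arrays at 9.70 to 10.21, so these 2 groups share no stretch of that axis. On the adipocyte axis, at 11.98 to 12.29 and 11.70 to 12.05, they overlap by g317 KO and g287 WT alone.

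The calls in g differed in how far they rested on single arrays. Slc2a4, Akt2 and Grb14 remained called without any 1 of the 10 g arrays, with differences of 1.14 to 1.33, 0.45 to 0.60 and -0.88 to -0.63. Insr lost its call without g286 WT, g307 WT, g309 WT, g300 KO, g317 KO or g320 KO, with limma adjusted p between 0.0525 and 0.101. Irs3 lost it without g307 WT, g308 WT, g309 WT, g300 KO, g306 KO, g317 KO or g320 KO, with limma adjusted p between 0.0507 and 0.0961. Irs1 gained one without g300 KO, g306 KO or g318 KO, with limma adjusted p between 0.0314 and 0.0462, and without g317 KO its difference was 0.37 (limma adjusted p = 0.171). Tbc1d4 gained a call without g300 KO, at 0.30 (limma adjusted p = 0.0484), and stood at 0.13 without g317 KO (limma adjusted p = 0.401). Without the 8 arrays whose hepatocyte mean exceeded 7, which left 1 KO and 3 WT arrays in g, the difference of Slc2a4 was 1.32 (limma adjusted p = 0.0627) and 0 of the 10 genes were called. The lone KO g array is then assumed to vary like the other groups.

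In sc none of the 10 genes was called between KO and WT by limma, while 5 had an unadjusted p under 0.05, against 10.3% of all genes, and 0.677% of all genes were called. Slc2a4 read 8.41, 8.21, 8.37, 8.27 and 8.14 in KO sc arrays, against 8.10, 7.63, 7.98, 7.61 and 7.66 in WT sc arrays. All KO arrays were above all WT arrays, by the narrowest margin over sc286WT, the array with the most muscle transcripts. The log2 difference was 0.48 (SE 0.14; limma adjusted p = 0.133), or 1.40-fold. The exact permutation test gave an unadjusted p = 0.00794, again the smallest it allows. Every gene without overlap gets this value, so it adds nothing to the separation.

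The other 4 genes with an unadjusted p under 0.05 were Irs1, Akt2, Pik3r1 and Grb14. Irs1 read 7.90, 7.55, 8.0, 7.53 and 7.58 in KO sc arrays, against 6.81, 7.25, 7.43, 7.23 and 7.51 in WT sc arrays. Its groups parted narrowly, between sc318KO and sc309WT, with a log2 difference of 0.46 (SE 0.19; limma adjusted p = 0.355). Akt2 also parted, at 9.97 to 10.15 in KO sc arrays and 9.53 to 9.96 in WT sc arrays, with a log2 difference of 0.24 (SE 0.11; limma adjusted p = 0.471). Slc2a4, Irs1 and Akt2 thus made 3 of 10 genes without overlap in sc, all higher in KO, against 2.94% of all genes.

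Pik3r1 read 9.82, 10.08, 10.33, 9.72 and 10.19 in KO sc arrays, against 10.19, 10.41, 10.52, 10.52 and 10.56 in WT sc arrays. Overlap came from sc317KO alone, with sc320KO just short of sc286WT, the lowest WT array. These are the 3 arrays with a lymphocyte marker mean above 8, and a link to Pik3r1 was not tested. The log2 difference was -0.41 (SE 0.15; limma adjusted p = 0.271). Grb14 read 8.23, 7.77, 7.39, 7.68 and 7.71 in KO sc arrays, against 7.78, 8.23, 8.60, 8.25 and 8.41 in WT sc arrays. Here sc300KO reached into the WT group and sc286WT into the KO group, and the log2 difference was -0.50 (SE 0.19; limma adjusted p = 0.303).

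The remaining 5 genes overlapped in sc. The log2 difference was 0.14 for Insr (95% confidence interval -0.05 to 0.33), 0.01 for Irs2 (-0.25 to 0.28) and 0.16 for Irs3 (-0.19 to 0.50). For Tbc1d4 it was 0.02 (95% confidence interval -0.18 to 0.22) and for Grb10 -0.01 (-0.29 to 0.27). The median of the 10 genes was 0.08, beside 0.01 for all genes. Among WT sc arrays sc286WT was the lowest for 8 of the 10 genes and the highest for Slc2a4. Of 14 macrophage markers 12 had a lower mean in KO than in WT sc arrays, 8 at an unadjusted p under 0.05 and 1 called, their mean being 8.06 to 8.44 in KO and 8.36 to 8.75 in WT sc arrays. With that mean as a covariate the sc difference of Slc2a4 was 0.28 (limma adjusted p = 0.569), that of Irs1 0.26 (limma adjusted p = 0.765) and that of Pik3r1 -0.57 (limma adjusted p = 0.209). With arrays weighted by their quality Slc2a4 alone was called in sc (log2 difference 0.55, limma adjusted p = 0.041), and without any 1 of the 10 sc arrays 0 of the 10 genes were called. Without sc286WT, sc307WT, sc317KO and sc320KO, the arrays with high muscle or lymphocyte marker means, 0 were called either. Slc2a4 was then at 0.66 (limma adjusted p = 0.200) and Pik3r1 at -0.62 (limma adjusted p = 0.293).

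The knockout differences in the 2 depots were compared directly as an interaction. For 9 of the 10 genes the difference in g was the more positive one, and for Grb14 it was the more negative one. None of the 10 passed (limma, 0.0769% of all genes called), and 1 of them, Slc2a4, had an unadjusted p under 0.05, against 13% of all genes. The Slc2a4 difference in g exceeded that in sc by 0.75 on the log2 scale (SE 0.20; 95% confidence interval 0.33 to 1.16; unadjusted p = 0.00122, limma adjusted p = 0.149). For Akt2 this excess was 0.28 (95% confidence interval -0.04 to 0.61; limma adjusted p = 0.454), for Irs3 0.40 (-0.10 to 0.89; limma adjusted p = 0.491) and for Grb14 -0.29 (-0.84 to 0.27; limma adjusted p = 0.685). The calls made in g but not in sc are therefore not shown to differ between the depots.

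Among WT arrays all 10 genes had a lower mean in g than in sc, and 6 were called lower: Slc2a4, Insr, Irs1, Akt2, Pik3r1 and Grb14. Of all genes 17.8% were called in this comparison, and 8.48% of all genes were called lower in g. Grb14 fell most, at 6.56 ± 0.21 in g and 8.25 ± 0.30 in sc (SD, n = 5 each), a log2 difference of -1.69 (SE 0.19; limma adjusted p = 4.32e-06), or 3.23-fold lower in g. Slc2a4 differed by -0.98 (SE 0.14; limma adjusted p = 5.78e-05), 1.97-fold lower in g. No g array of either gene reached its lowest sc array.

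The other 4 called genes fell by less. The log2 difference was -0.59 for Irs1 (limma adjusted p = 0.0340), -0.50 for Pik3r1 (limma adjusted p = 0.0228), -0.46 for Akt2 (limma adjusted p = 0.00532) and -0.39 for Insr (limma adjusted p = 0.00483). Akt2 overlapped, since sc286WT at 9.53 lay within the g arrays, and the other 5 called genes did not overlap, against 16.1% of all genes. Irs1 lost its call without any 1 of sc287WT, sc307WT, sc308WT, sc309WT, g307 WT, g308 WT and g309 WT, and Pik3r1 without any 1 of sc307WT, sc308WT, sc309WT, g286 WT, g307 WT and g309 WT. Irs3 (-0.32), Irs2 (-0.11), Grb10 (-0.06) and Tbc1d4, with a mean of 8.30 in both depots, were not called. The median over the 10 genes was -0.43, and over all genes -0.04.

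Among KO arrays Grb14 alone of the 10 genes was called between the depots, with 4.13% of all genes called and 1.27% lower in g. It averaged 5.78 ± 0.41 in g and 7.76 ± 0.30 in sc KO arrays (SD, n = 5 each), a log2 difference of -1.98 (SE 0.19; limma adjusted p = 2.56e-06), or 3.94-fold lower in g. Its 10 KO arrays did not overlap, as was true of 4.26% of all genes. Slc2a4 averaged 8.05 ± 0.28 in g and 8.28 ± 0.11 in sc KO arrays (SD, n = 5 each) and was not called (log2 difference -0.23, 95% confidence interval -0.52 to 0.06, limma adjusted p = 0.433). Irs1 differed by -0.49 (limma adjusted p = 0.167) and without g317 KO by -0.69 (limma adjusted p = 0.0129), the one array whose absence added a call.

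**Figure D4:**
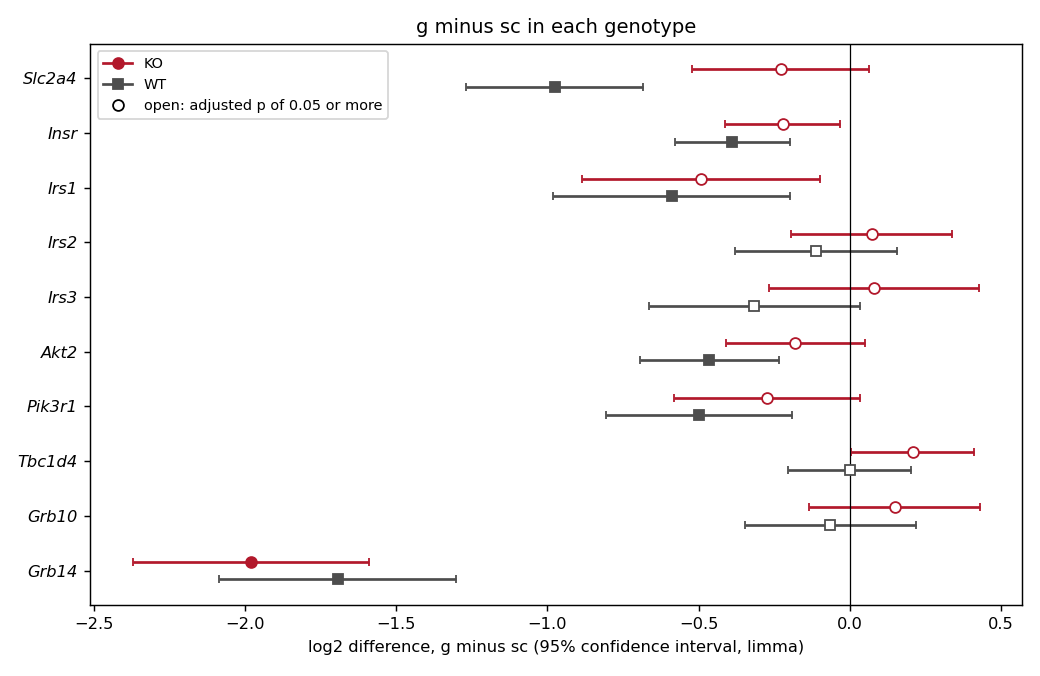
log2 difference, g minus sc, of each of the 10 genes (rows) among KO arrays and among WT arrays, with 95% confidence intervals from limma; filled symbols mark an adjusted p under 0.05. Grb14 lies near -2 in KO and at -1.69 in WT, while Slc2a4 lies at -0.23 in KO and -0.98 in WT.

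The depot comparison among WT arrays and the knockout comparison in g share the 5 WT g arrays, so the low WT g values of Slc2a4, Insr and Akt2 enter both with opposite sign. The order of the group means shows the same arrays from the other side. Slc2a4 ran sc KO 8.28, g KO 8.05, sc WT 7.80 and g WT 6.82, where g KO overlapped both of its neighbours and the step of 0.98 to g WT did not. Grb14 ran sc WT 8.25, sc KO 7.76, g WT 6.56 and g KO 5.78, with overlap in the first step alone. Akt2 and Insr were lowest in g WT too, at 9.36 and 9.23. Pik3r1 was highest in sc WT, at 10.44, and lowest in g KO, at 9.75. Macrophage markers rose in g against sc in both genotypes, 13 of 14 among WT and 12 of 14 among KO arrays, and so did 7 of 7 mesothelial markers in each. Among WT arrays 8 of 9 mast cell markers also rose in g, while 5 of 7 adipocyte, 4 of 8 brown adipocyte and 3 of 9 endothelial markers fell. Among KO arrays the counts were 0 of 9 mast cell, 0 of 7 adipocyte, 2 of 8 brown adipocyte (both lower) and 0 of 9 endothelial markers. With the macrophage mean as a covariate 0 of the 10 genes were called between depots in WT, and with the adipocyte mean 2 were, the share of all genes called in these fits not being given. The macrophage mean was 9.70 to 10.21 in g and 8.36 to 8.75 in sc WT arrays, without overlap. Its part and that of the depot therefore cannot be told apart.

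Grb14 is the gene that fell in g KO arrays and fell in g in both genotypes, and Akt2 and Irs3 rose in g KO arrays. Irs1 was not called between KO and WT in either depot. It was higher without overlap in KO arrays of both depots, as were Slc2a4 and Akt2. The 300 bases around the outermost start of Grb14, Akt2, Irs3 and Irs1 are shown so that their promoters can be compared. They run from 250 before to 50 after the start, 5′ to 3′ on the gene's strand, in RefSeq's GRCm38.p6 table, and capitals mark the motifs found. Grb14 has its window at chr2:65022717-65023016 on the minus strand, Akt2 at chr7:27591302-27591601 on the plus strand, Irs3 at chr5:137645665-137645964 and Irs1 at chr1:82291390-82291689, both on the minus strand.
Grb14: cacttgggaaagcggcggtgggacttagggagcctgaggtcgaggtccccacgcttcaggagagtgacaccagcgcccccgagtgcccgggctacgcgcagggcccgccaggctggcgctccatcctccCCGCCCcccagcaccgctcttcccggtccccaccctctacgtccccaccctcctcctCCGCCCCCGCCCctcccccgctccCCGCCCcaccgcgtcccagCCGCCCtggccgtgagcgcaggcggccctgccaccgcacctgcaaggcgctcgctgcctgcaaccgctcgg
Akt2: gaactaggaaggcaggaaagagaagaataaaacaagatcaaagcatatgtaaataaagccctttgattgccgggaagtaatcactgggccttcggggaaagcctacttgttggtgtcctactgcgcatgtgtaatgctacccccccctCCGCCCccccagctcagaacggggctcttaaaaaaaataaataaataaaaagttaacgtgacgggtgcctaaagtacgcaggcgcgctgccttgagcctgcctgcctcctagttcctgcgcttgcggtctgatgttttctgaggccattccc
Irs3: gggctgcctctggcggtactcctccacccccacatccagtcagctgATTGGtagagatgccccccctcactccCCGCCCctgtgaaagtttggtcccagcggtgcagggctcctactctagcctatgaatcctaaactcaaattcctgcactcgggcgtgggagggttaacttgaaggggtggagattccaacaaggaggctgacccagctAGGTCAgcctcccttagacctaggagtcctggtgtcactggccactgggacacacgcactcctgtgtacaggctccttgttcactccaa
Irs1: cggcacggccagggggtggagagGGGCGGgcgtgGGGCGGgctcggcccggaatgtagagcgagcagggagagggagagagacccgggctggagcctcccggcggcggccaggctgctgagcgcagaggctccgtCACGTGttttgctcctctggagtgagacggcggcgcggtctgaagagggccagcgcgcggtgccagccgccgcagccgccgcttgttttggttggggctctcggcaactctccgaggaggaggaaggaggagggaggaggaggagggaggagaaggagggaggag
The letters searched on both strands were TATAAA for the core promoter element that binds the TATA-binding protein, CCAAT for the element bound by nuclear factor Y, and GGGCGG for the Sp1 element. Further letters searched were CACGTG for the E box, GTAAACA for the forkhead site and AGGTCA for the nuclear receptor site, and matches of the Sp1 element can overlap each other. The Grb14 window held 5 Sp1 elements, the Irs1 window 2 and an E box, the Irs3 window a Sp1 element, a CCAAT element and a nuclear receptor site, and the Akt2 window 1 Sp1 element. Over 32851 promoter windows of this length, 35.7% held a Sp1 element, 37.4% a CCAAT element, 16.3% a nuclear receptor site and 7.15% an E box. The windows held 75.3% (Grb14), 71.3% (Irs1), 58.3% (Irs3) and 50% (Akt2) G and C, beside a median of 52.7% for all windows. Such matches describe letters alone.

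Around the 10 genes, 93 further genes of the insulin pathway were measured out of 102 listed. In g, 24 of the 93 were called between KO and WT, 14 higher and 10 lower in KO, where 11.3% of all genes were called, 5.01% higher and 6.27% lower. The groups within the list were not tested against each other. Of 12 AKT targets and metabolic effectors, 8 had a higher and 4 a lower mean in KO, and 5 were called higher and 0 lower. They were Eif4ebp1, the translation repressor 4E-BP1, with a log2 difference of 1.06 (limma adjusted p = 4.45e-05), the glycogen synthase gene Gys1 with 0.71 (limma adjusted p = 0.00207) and the transcription factor gene Foxo1 with 0.65 (limma adjusted p = 0.000851). The other two were the antilipolytic phosphodiesterase Pde3b with 0.61 (limma adjusted p = 0.00122) and hexokinase Hk2, which phosphorylates the glucose that enters, with 0.50 (limma adjusted p = 0.00239).

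Of 19 negative regulators, 12 had a lower and 7 a higher mean in g KO arrays. Called lower were 4 and called higher 0, with 6.27% of all genes called lower. The phosphatase genes Ptprj, Ptpn1 (PTP1B, which dephosphorylates the insulin receptor) and Ptpra differed by -0.75 (limma adjusted p = 0.00147), -0.63 (limma adjusted p = 0.0212) and -0.38 (limma adjusted p = 0.0373), and Socs3, a suppressor of receptor signalling, by -0.52 (limma adjusted p = 0.00213). The 2 adaptors behaved apart from these counts, Grb14 falling and Grb10 not being called. Near the receptor 4 of 14 genes were called, with 11.3% of all genes called. The adaptor Sh2b2 (0.37), the exchange factor Rapgef1 (0.32) and its GTPase Rhoq (TC10; 0.36) rose, and Cbl, the ubiquitin ligase that works with them, differed by -0.33. Among 12 other kinase genes of the PI3K and AKT step 0 were called by limma, with 3 at an unadjusted p under 0.05 (24.1% of all genes were). Akt1 had the smallest p, with a difference of -0.29 (limma adjusted p = 0.0562), beside the rise of Akt2.

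The 24 genes of GLUT4 vesicle traffic split, with 4 called higher and 5 lower in g KO arrays, beside 5.01% and 6.27% of all genes. The motor gene Myo1c (0.61, limma adjusted p = 0.00107), the sorting receptor Sort1 (0.46, limma adjusted p = 0.00205) and the caveolin gene Cav1 (0.40, limma adjusted p = 0.0114) rose. Another motor gene, Myo5a (-0.55, limma adjusted p = 0.00214), the Rab exchange factor Dennd4c (-0.50, limma adjusted p = 0.00475) and the syntaxin-binding gene Stxbp3 (-0.40, limma adjusted p = 0.0189) fell. Of 12 other glucose transporters 2 were called higher in KO, with 5.01% of all genes called higher. Slc2a12 (GLUT12) was at 5.38 ± 0.23 in KO and 4.48 ± 0.25 in WT g arrays (SD, n = 5 each; limma adjusted p = 0.00205), the WT level being within the range of the negative control medians, and Slc5a1 averaged below the negative control medians in both. The ubiquitous Slc2a1 (GLUT1) was at 7.57 ± 0.24 in KO and 7.85 ± 0.29 in WT g arrays (SD, n = 5 each; limma adjusted p = 0.198), and Slc2a2, the transporter of hepatocytes, at 8.26 ± 1.08 in KO and 6.84 ± 1.05 in WT g arrays (SD, n = 5 each; limma adjusted p = 0.201). These last 2 were picked after their values were seen. With the macrophage mean as a covariate 0 of the 93 genes were called in g and Ptpn1 stood at 0.12. With the adipocyte mean 11 were called, and with the hepatocyte mean 14. The share of all genes called in these covariate fits is not given here.

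**Figure D5:**
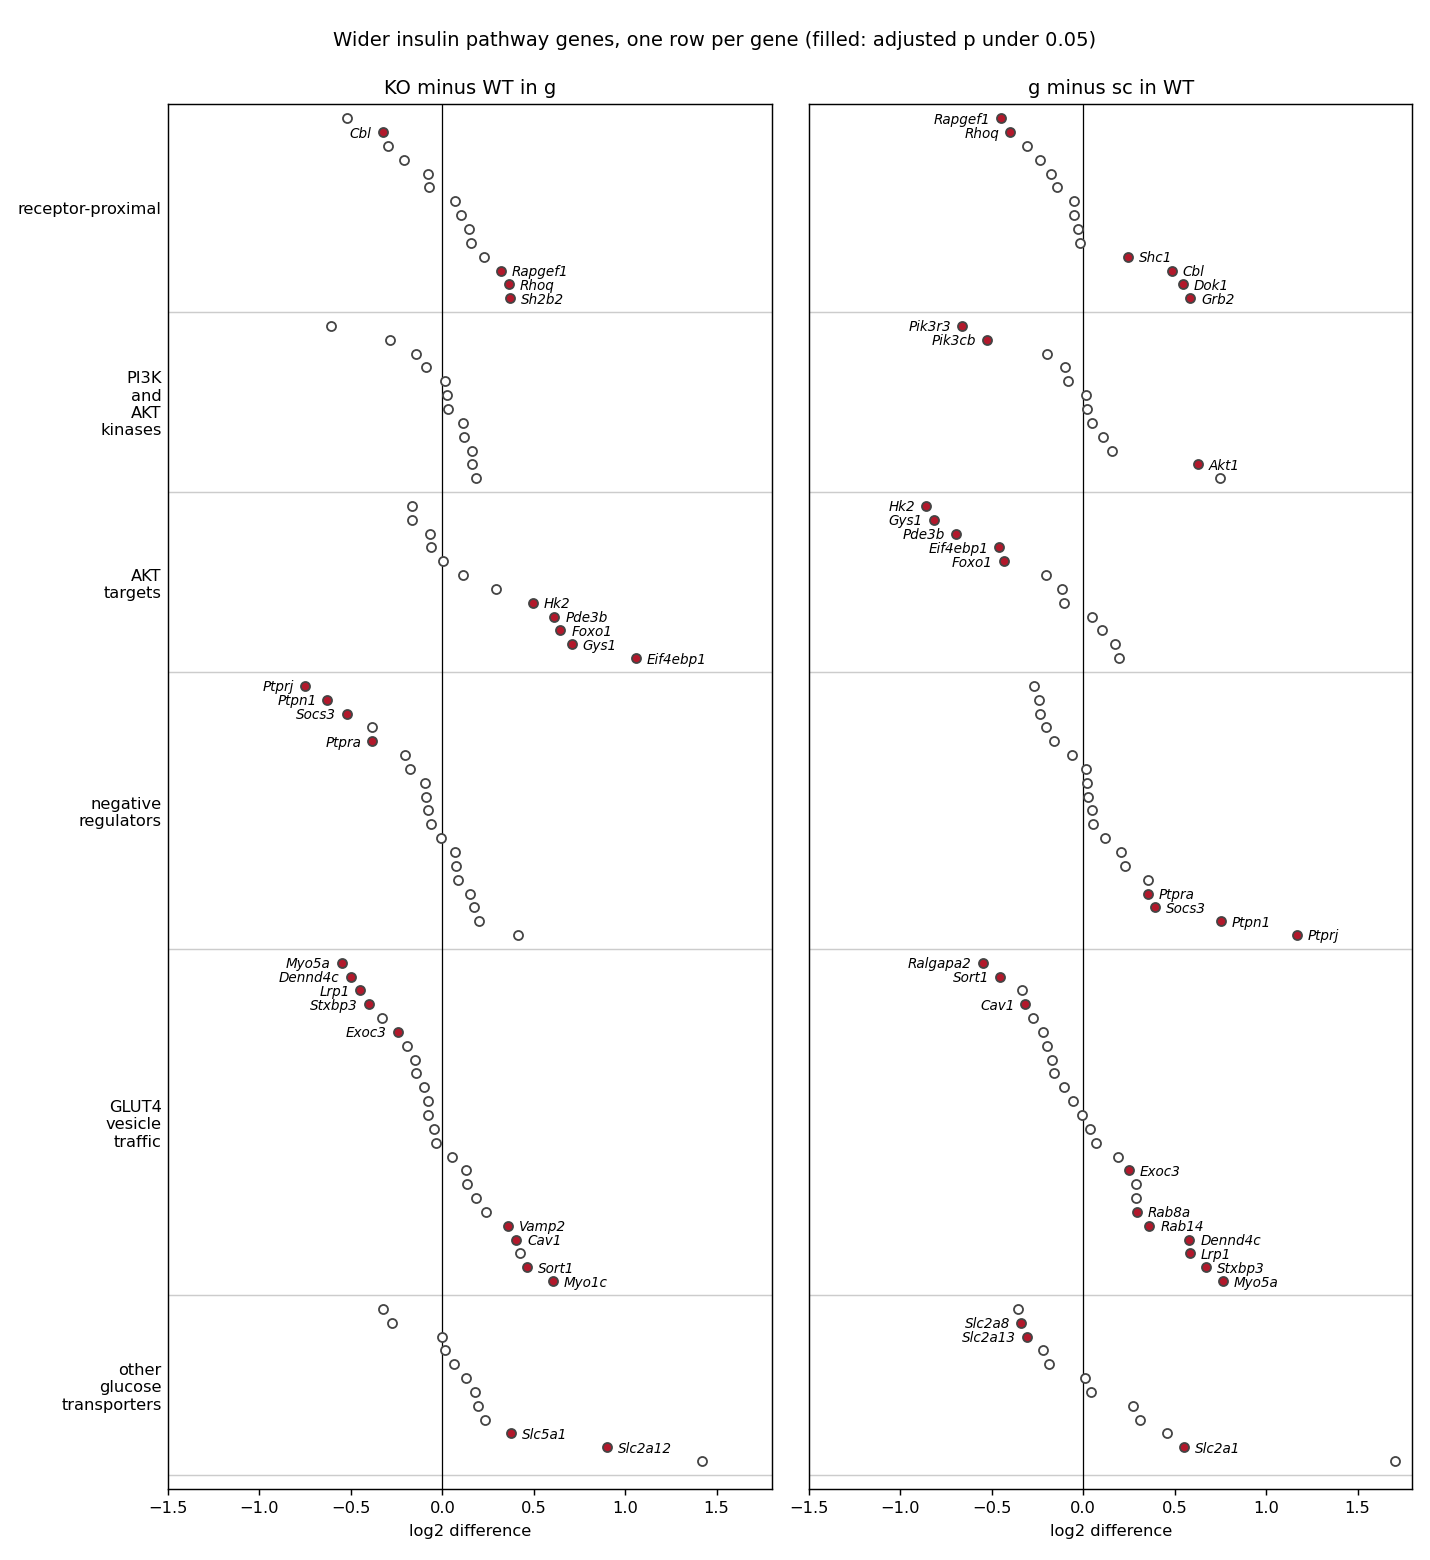
log2 difference (horizontal axes) of the 93 further insulin pathway genes, 1 row per gene, grouped by role, for KO minus WT in g and for g minus sc in WT; filled points have an adjusted p under 0.05. Filled AKT targets number 5 in each panel, from 0.50 to 1.06 for KO minus WT and from -0.86 to -0.44 for g minus sc, and the panels share the 5 WT g arrays.

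In sc 0 of the 93 genes were called between KO and WT by limma, with 11 at an unadjusted p under 0.05 (11.8%, against 10.3% of all genes). Of these 93, Myo1c had a difference of 0.40 (limma adjusted p = 0.0975) and Pik3cb, a catalytic kinase subunit, one of -0.41 (limma adjusted p = 0.124). The interaction called 0 of the 93, with 27 at an unadjusted p under 0.05 (29%, against 13% of all genes). Between the depots 31 of 93 were called among WT arrays, 17 higher (9.3% of all genes) and 14 lower in g (8.48% of all genes). Among KO arrays 3 were called, 2 higher (2.87% of all genes) and 1 lower (1.27% of all genes). Of the 12 AKT targets 5 fell in g among WT arrays, a comparison that rests on the same 5 WT g arrays as the knockout one, with Hk2 at -0.86, Gys1 at -0.82, Pde3b at -0.70, Eif4ebp1 at -0.46 and Foxo1 at -0.44. Akt1 was higher in g by 0.63 (limma adjusted p = 9.81e-05), while Akt2 was lower. In KO the called genes were Ptprj at 0.67, the inositol transporter gene Slc2a13 at -0.39, and Slc2a12, which averaged 5.38 in g and 4.59 in sc, a level within the range of the negative control medians.

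The genes whose levels over the 20 arrays were most like those of Slc2a4 were Sdr39u1 (Pearson r = 0.954), Gys1 (0.952), Bckdha, a subunit of the enzyme that breaks down branched-chain keto acids (0.941), Fry (0.931) and Utrn (0.931). These are descriptions over arrays that fall into 4 groups, and with group means removed the r to Slc2a4 was 0.922 for Gys1 and 0.554 to 0.747 for the other 4. Akt2 was most like Echs1 (0.962) and Bche (0.959), and Insr most like Hadh (0.951) and Dlc1 (0.949), Echs1 and Hadh being enzymes of fatty acid oxidation. Irs1 was most like Chdh (0.938) and Csad (0.929), Irs3 like Lims2 (0.917) and Tmbim1 (0.914), and Grb14 like Mme (0.939) and Dpt (0.937). With group means removed the r to Grb14 was 0.561 for Mme and 0.33 for Dpt. For the genes named beside Akt2, Insr, Irs1 and Irs3 it was then 0.812 to 0.953. For Irs2, Pik3r1, Tbc1d4 and Grb10 the highest r to another gene was 0.837, 0.861, 0.852 and 0.812.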

How the data were processed

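RNA of 20 samples was measured on GeneChip WT arrays. Per the submitters' processing notes RMA and limma were used (versions not given in the sources used here). The authors deposited 1 log2 value per probe and array. Arrays carry no counts, so precision is set by how many there are. Of 28846 probes, 6640 control probes and 2634 with no symbol or with more than 1 were left out. Where a gene had more than 1 probe (55 genes), its brightest on average stood for it, which gave 19505 genes.

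Groups came from the genotype and tissue labels. In R 4.3.3, limma 3.58.1 fitted 4 group means (16 residual degrees of freedom, no covariate), two-sided, with Benjamini-Hochberg adjustment over all genes. SE is the moderated one. The design text names another gene for the sc arrays, and the labels were followed. The 10 genes, the wider list, the markers and the named-gene rule (every listed gene; of each group of the wider list every called gene, or the 6 with the smallest p where more were called, or the one with the smallest p where none was; for likeness the 5 or 2 highest r) were chosen with earlier results of these data known. Positions and sequences are those of RefSeq's GRCm38.p6 table, which held promoters for 8 of the 10 genes. The array's build is not given in the sources used here.

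On simulated data with 200 of 19505 genes changed 2-fold, the fit recovered 90.5% for KO against WT in g, 87.5% in sc, 72.5% for the interaction, and 90% and 93% for the depots in WT and KO. Changed 1.5-fold, these were 61%, 58.5%, 21.5%, 61% and 65.5%. The simulated noise was normal and independent for each gene and array, without the shared shifts of cell markers seen on these arrays. Only 200 genes were changed, while 2200 were called for KO against WT in g and 3468 between depots in WT. The adjusted p depends on how many genes change. The rates therefore may not hold for the real data. Alternatives were quantile normalization, dim genes left out, probe means, only the groups compared, another prior, array weights, the title number as a block, marker means as covariates, and arrays left out.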

Additional observations from a re-analysis of the deposited data

How the results depend on the processing

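Over 1180 alternative values of the 10 genes in 5 comparisons, 1119 kept their side of the threshold, 49 lost a call, 9 gained one, and 3 calls turned sign. Of 921 alternatives of values not called, 58 changed sign, and the 1119 does not exclude these. The title number is shared by an sc and a g array, but the labels do not say that it names a mouse. The numbers were therefore not taken as pairs in the main fit. Same-numbered arrays deviated together with correlations of -0.461 to 0.142 (median 0.0112), and 3 of 10 matched their own number best. Arrays also differ in markers of other cells, so these values do not exclude a shared mouse. With the replicate block (consensus correlation 0.0863) 0 of 50 calls of the 10 genes changed, and Slc2a4 in g stayed at 1.23 (limma adjusted p = 4.02e-05). Counts of called genes moved as follows, and the cause was not tested. The share of all genes called in each alternative is not set beside them, so a general loss of calls is not told apart from one in these genes. For KO against WT in g, 5 of the 10 genes and 24 of the 93 pathway genes became 2 and 11 with the adipocyte mean as a covariate, 3 and 14 with the hepatocyte mean, 0 and 0 with the macrophage mean, and 0 and 0 without the arrays of hepatocyte mean above 7, where fewer arrays remained. Leaving out each array gave 3 to 6 and 15 to 30, with 3 of the 10 genes without g307 WT, g309 WT, g317 KO or g320 KO and 15 of the 93 without g307 WT. In sc, array weights gave 1 of the 10 genes, the adipocyte mean 2 of the 93, and leaving out each array 0 to 0 of both. For the interaction, leaving out each array gave 0 to 0 and 0 to 1, the 1 without sc286WT or sc318KO. For g against sc in WT, 6 and 31 became 2 and 9 with the adipocyte mean and 0 and 0 with the macrophage mean, and 4 to 6 and 25 to 32 when each array was left out. In KO, 1 and 3 became 1 to 2 and 3 to 4 when each array was left out, with 2 without g317 KO. The 3 pathway genes became 0 with only the groups compared, 0 with the macrophage mean and 1 without the arrays of high hepatocyte mean. With the macrophage mean as a covariate called differences turned sign for Ptpn1 in g (0.12) and, for g against sc in WT, for Insr (0.079), Irs1 (0.26), Pik3r1 (0.16), Grb2 (-0.39), Shc1 (-0.023), Dok1 (-0.58), Gys1 (0.040), Ptpn1 (-0.52), Ptpra (-0.28), Slc2a1 (-0.30) and Slc2a8 (0.26). None of these turned differences was called. The macrophage mean did not overlap between the groups compared, so its part and that of genotype or depot cannot be told apart. The interaction uses all 4 groups, so no fit of only the groups compared exists for it.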
